A study of Mus musculus with 10 samples.

Results

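Class I histone deacetylases and the metallothionein system were followed in cardiac endothelial cells (ECs) of mice on a ketogenic diet. The genes were the class I deacetylases Hdac1, Hdac2, Hdac3 and Hdac8, the metallothioneins Mt1 and Mt2, the metal-responsive transcription factor Mtf1 and the zinc exporter Slc30a1. They were chosen by name, and all 8 were found among the 46983 genes of the count table by matching Ensembl identifiers to symbols. RNA came from the hearts of C57BL/6J wild-type mice, given as male in the study's text, that entered their diet group at 8 weeks of age. Of these, 5 mice received a control diet and 5 a ketogenic diet, rich in fat and nearly free of carbohydrate, for 14 days, with 1 library per mouse. No transgene or drug was used in either group, so the groups differed in diet alone as far as the labels state. Cells were captured from digested hearts with CD31 antibodies on magnetic beads, and 10 ng of RNA per sample was amplified as full-length cDNA and sequenced as single reads of 50 bases. The capture was checked here through marker genes, and messenger RNA is the only quantity these libraries hold: neither deacetylase activity, histone acetylation nor metal content was measured.

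Class I histone deacetylases are zinc-dependent enzymes that remove acetyl groups from lysines of histones and other proteins, mostly as the catalytic subunits of corepressor complexes. The ketone body β-hydroxybutyrate has been proposed as an inhibitor of these enzymes, and Foxo3 and Mt2 are among the genes that were put forward as responding to it. Metallothioneins are small cysteine-rich proteins that bind zinc and copper. Their genes and Slc30a1 are activated by MTF1 when free zinc rises, through short metal response elements in their promoters, and metallothionein genes also respond to glucocorticoids and stress.

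None of the 8 genes changed detectably between the diets. Comparing 5 with 5 mice, edgeR's quasi-likelihood test gave 0 of 8 genes with an adjusted p under 0.05, against 1.34% of all 15949 genes tested (0.809% higher and 0.527% lower in ketogenic mice). At an unadjusted p under 0.05 the count was also 0 of 8, against 17.8% of all genes tested. DESeq2 and limma likewise gave 0 of 8 genes, adjusted or not. The normalised counts of the diets overlapped for every one of the 8 genes, whereas 4.34% of all tested genes showed no overlap. The lowest adjusted p of any of the 8 genes in any of 23 settings was 0.125, for Hdac1 without ketogenic mouse 2. On the log2 scale 5 genes lay higher and 3 lower on the ketogenic diet, and the median log2 fold change of the 8 genes was 0.06, beside -0.01 for all tested genes. The 95% intervals bound the changes that the deposited counts leave possible. For Mt1 the interval of the fold ran from 0.930 to 1.07, and for Mt2, with the fewest reads, from 0.825 to 1.36. Mt1 reads took up much of the positions at which a read can start, as described below. The interval of Mt1 therefore does not apply to its transcript level. A p-value above the threshold does not show that the levels were equal.

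**Figure D1:**
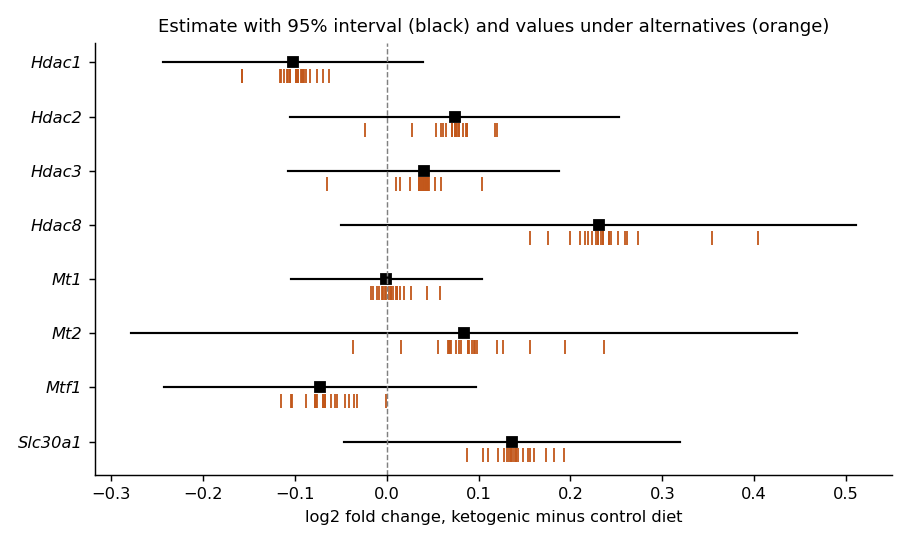
Log2 fold changes (ketogenic minus control diet, horizontal axis) of the 8 genes, as black squares with 95% intervals from edgeR and 5 mice per diet. Orange ticks are the values under the alternative settings, left-out mice included. Every black interval spans 0, from Hdac1 at -0.10 to Hdac8 at 0.23.

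Each library held 10885154 to 12710861 reads assigned to genes, with medians of 11285659 on the control and 11837379 on the ketogenic diet. Normalised counts below are counts divided by edgeR's TMM-scaled library size relative to its mean, and are given per mouse in the order of the label numbers 1 to 5. P-values were adjusted over all tested genes by the Benjamini-Hochberg method, and exact permutation tests were two-sided over the 252 groupings of 10 mice, with 0.00794 as the smallest p they allow. The labels do not say which mice shared a litter or cage. All 6 endothelial markers were present in every mouse, with summed RPKM of 453 to 508, but 5 pericyte and smooth muscle markers reached 446 to 493, 5 fibroblast markers 196 to 242 and 8 cardiomyocyte markers 122 to 195. Each sum covers a different set of genes and gives no share of cells. In each of these lists at least 1 marker used more than 50% of its possible read starts in some mouse. This bound is described with Mt1, and its part in the sums was not tested. The study itself compared cardiomyocyte, fibroblast and smooth muscle markers between captured cells and heart lysate and reported significant differences for each marker. It also stained captured cells for CD31 and CD45. No lysate is among the libraries used here, so that comparison could not be repeated. By the markers summed above, the preparations held other cell types beside ECs. In such bulk samples fewer cells of a type and less RNA per cell cannot be told apart.

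Expression levels of the 8 genes can be compared only per length, and the order depended on the length used. By the deposited RPKM, averaged over all 10 mice, Mt1 stood highest at 112, followed by Mt2 at 21.5, Hdac3 at 13.0, Hdac1 at 9.45, Slc30a1 at 7.87, Hdac2 at 5.53, Hdac8 at 5.03 and Mtf1 at 3.76. The ranges over mice overlapped between Hdac1 and Slc30a1, between Hdac2 and Hdac8 and between Hdac8 and Mtf1, so these neighbours were not separated. For part of the genes, lengths recovered from the RPKM table counted overlapping exons more than once. Among 11316 genes with overlapping exons and an unchanged identifier version, 4142 (36.6%) matched the sum of distinct exons within 0.5 bases. None matched the merged exons (0 of 11316), and how the remaining lengths were derived was not determined. Compared with the merged exons of GENCODE M21, the length used was greater for 6 of the 8 genes, as for Hdac3 (8365 against 4054 bases), and shorter for Mt1 (540 against 1246) and Mt2 (556 against 588). When the same counts were scaled to the length of 1 coding transcript per gene, in reads per kilobase scaled to library size, Mt1 remained highest at 110, but Hdac3 at 53.5 and Hdac1 at 29.7 moved above Mt2 at 23.3, and Hdac8 (17.0), Hdac2 (16.5), Slc30a1 (8.89) and Mtf1 (7.35) followed. On that scale the mice overlapped between Hdac1 and Mt2, between Mt2 and Hdac8, between Hdac8 and Hdac2 and between Slc30a1 and Mtf1. Among the class I deacetylases Hdac3 was the highest on both scales as counted. With the reads of the pseudogene Gm10093, described with Hdac1, added to Hdac1, Hdac1 stood at 57.5 per transcript length (range 53.4 to 61.4) against 53.5 for Hdac3 (45.0 to 59.8), and the ranges overlapped.

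**Figure D2:**
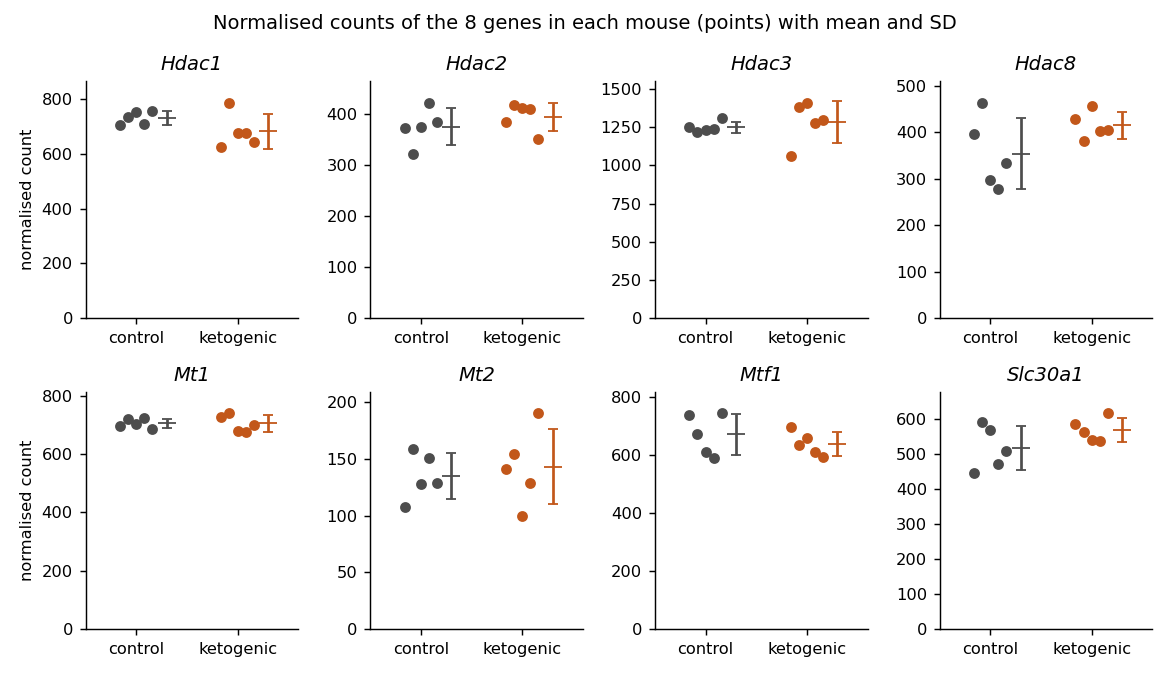
Normalised counts (vertical axes, from 0) of the 8 genes in each of the 5 control (grey) and 5 ketogenic (orange) mice, with mean and SD beside the points. The diets overlap in every panel. Mt1 lies between 676 and 739 in all 10 mice, whereas Mt2 runs from 100 to 190.

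HDAC1 is, with its close relative HDAC2, the catalytic subunit of the Sin3, NuRD, CoREST and MiDAC complexes. Normalised counts of Hdac1 (ENSMUSG00000028800, chr4:129516104-129542713, minus strand, GRCm38) were 703, 732, 752, 709 and 757 on the control diet and 626, 786, 675, 676 and 641 on the ketogenic diet. On the ketogenic diet 4 of 5 mice lay below every control mouse and mouse 2 lay above all of them. The mean was 731 ± 24.5 (SD, n = 5) on the control and 681 ± 62.8 (SD, n = 5) on the ketogenic diet. The log2 fold change was -0.10 (SE 0.0650, 95% interval -0.24 to 0.04), with edgeR's adjusted p = 0.439 and an exact permutation p of 0.119. Without ketogenic mouse 2 the log2 fold change was -0.16, again short of the threshold.

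The count of Hdac1 is uncertain because much of its sequence exists elsewhere in the genome. Of 1989 windows of 50 bases in its main coding transcript, 1167 (58.7%) also occurred in transcripts of processed pseudogenes, 1121 of them in Gm10093, 171 in AC125456.1 and 156 in Gm4864. For Hdac2, Hdac3 and Hdac8 no such window was shared with another gene. Gm10093 carried almost as many reads as Hdac1 itself, between 615 and 700 in every mouse, and the other copies had no row in the count table. Its normalised count was 665 ± 18.7 (SD, n = 5) on the control and 655 ± 17.3 (SD, n = 5) on the ketogenic diet, with a log2 fold change of -0.02 (SE 0.0468) and edgeR's adjusted p = 0.846. With both genes counted together, an alternative chosen after the data were seen, the sum was 1396 ± 29.1 (SD, n = 5) on the control and 1336 ± 73.8 (SD, n = 5) on the ketogenic diet. The log2 fold change of the sum was -0.06 (SE 0.0433, 95% interval -0.16 to 0.03; edgeR's adjusted p = 0.475). How reads were divided between the gene and its copies was not tested, and neither the level of Hdac1 nor its rank among the deacetylases is secured by these counts.

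HDAC2 shares most partners with HDAC1, and their coding sequences were 75.9% identical over the aligned bases, the closest pair among the 4 enzymes. The other pairs ranged from 60.6% (Hdac2 with Hdac8) to 68.1% (Hdac1 with Hdac3). Normalised counts of Hdac2 (chr10:36974544-37001889, plus strand) were 372, 322, 375, 422 and 384 on the control and 384, 417, 411, 409 and 352 on the ketogenic diet. All ketogenic mice lay within the control range. Means were 375 ± 35.7 and 395 ± 27.2 (SD, n = 5 each), the log2 fold change was 0.07 (SE 0.0823, 95% interval -0.11 to 0.25), and edgeR's adjusted p was 0.676. With a mouse left out the estimate ran from 0.03 (without control mouse 2) to 0.12 (without control mouse 4), and it was also 0.12 without ketogenic mouse 5.

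HDAC3 is the deacetylase of the NCoR corepressor complex. Hdac3 (chr18:37935844-37955016, minus strand) gave normalised counts of 1252, 1218, 1232, 1238 and 1314 in control mice and of 1065, 1380, 1412, 1275 and 1297 in ketogenic mice. Control mice lay close together, while ketogenic mouse 1 lay below and mice 2 and 3 above all of them. The mean was 1251 ± 37.3 (SD, n = 5) against 1286 ± 136 (SD, n = 5), with a log2 fold change of 0.04 (SE 0.0674, 95% interval -0.11 to 0.19; edgeR's adjusted p = 0.797). It was 0.10 without ketogenic mouse 1 and 0.01 without either mouse 2 or mouse 3 of that diet. When a cardiomyocyte marker score of each mouse entered the fit as a covariate, the direction turned for Hdac2, to -0.02, and for Hdac3, to -0.06.

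HDAC8 acts largely outside the large corepressor complexes and is known for deacetylating the cohesin subunit SMC3. Hdac8 (chrX:102284639-102505359, minus strand) had the largest estimate among the 8 genes. Its normalised counts were 395, 463, 297, 277 and 333 on the control diet and 427, 382, 457, 402 and 405 on the ketogenic diet. Every ketogenic mouse exceeded the control mean, yet control mouse 2 was the highest of all 10. Means were 353 ± 76.3 and 415 ± 28.5 (SD, n = 5 each), and the log2 fold change of 0.23 (SE 0.129, 95% interval -0.05 to 0.51) did not pass the test (edgeR's adjusted p = 0.376, exact permutation p = 0.119). The estimate fell to 0.16 without control mouse 4, and grew to 0.35 without control mouse 2 and to 0.40 in the fit that includes the cardiomyocyte score, in each case short of the threshold. Summed over the 4 class I genes, normalised counts were 2709 ± 59.2 on the control and 2776 ± 194 on the ketogenic diet (SD, n = 5 each).

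Mt1 and Mt2 lie next to each other on the plus strand of chromosome 8 (GRCm38), Mt2 at chr8:94172664-94173568 and Mt1 at chr8:94179082-94180327, with 5513 bases between them. Their coding sequences are shown because the shared protein design is visible in them and because similar genes can exchange reads. Cysteine codons, which supply the metal-binding residues, are in capitals, and the sequences are those of the first listed coding transcript of each gene in GENCODE M21, 5′ to 3′.
Mt1: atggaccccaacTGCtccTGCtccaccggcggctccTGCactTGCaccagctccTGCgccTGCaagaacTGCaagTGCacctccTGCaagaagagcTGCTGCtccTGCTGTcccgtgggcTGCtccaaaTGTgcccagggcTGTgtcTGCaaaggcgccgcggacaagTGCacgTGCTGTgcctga
Mt2: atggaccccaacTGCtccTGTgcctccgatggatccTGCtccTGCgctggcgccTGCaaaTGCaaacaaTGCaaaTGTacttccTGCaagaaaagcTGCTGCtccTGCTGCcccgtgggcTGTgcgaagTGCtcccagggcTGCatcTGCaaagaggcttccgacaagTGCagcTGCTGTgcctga
Each coding sequence held 186 bases and 62 codons with the stop codon, of which 20 encoded cysteine, and all 20 stood at the same codon in both genes. Of the bases 79.6% were identical. The longest identical run was 20 bases, shorter than the reads, and no window of 50 bases of Mt1 occurred in another gene, so a whole read could be assigned to 1 of the pair.

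The promoters are shown because MTF1 acts through metal response elements. RefSeq promoter sequences (GRCm38.p6, 250 bases before to 50 after the annotated start) were found for 6 of the 8 genes, and those of both metallothioneins and Slc30a1 are given 5′ to 3′ in the direction of the gene. Capitals mark each match on either strand to the response element core, searched as TGCACNC and TGCGCNC. The windows are chr8:94178839-94179138 for Mt1, chr8:94172368-94172667 for Mt2 and chr1:191906531-191906830 for Slc30a1, all on the plus strand.
Mt1: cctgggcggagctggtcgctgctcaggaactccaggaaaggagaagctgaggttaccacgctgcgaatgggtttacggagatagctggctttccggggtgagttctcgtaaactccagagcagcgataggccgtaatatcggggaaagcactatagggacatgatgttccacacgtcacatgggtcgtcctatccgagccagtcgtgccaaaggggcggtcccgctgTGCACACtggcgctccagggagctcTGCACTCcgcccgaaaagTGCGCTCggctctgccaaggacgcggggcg
Mt2: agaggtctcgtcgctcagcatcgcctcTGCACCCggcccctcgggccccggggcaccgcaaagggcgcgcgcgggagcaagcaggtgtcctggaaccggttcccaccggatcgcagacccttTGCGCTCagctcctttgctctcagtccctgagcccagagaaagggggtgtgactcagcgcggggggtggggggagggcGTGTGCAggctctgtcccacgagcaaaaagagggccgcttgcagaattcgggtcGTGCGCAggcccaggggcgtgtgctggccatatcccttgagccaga
Slc30a1: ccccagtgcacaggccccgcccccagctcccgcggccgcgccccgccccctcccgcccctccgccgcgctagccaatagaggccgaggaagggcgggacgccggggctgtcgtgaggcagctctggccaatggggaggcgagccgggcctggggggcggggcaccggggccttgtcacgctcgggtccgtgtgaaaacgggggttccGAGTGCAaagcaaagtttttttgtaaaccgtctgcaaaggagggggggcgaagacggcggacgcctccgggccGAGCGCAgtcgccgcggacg
Mt1 held 3 cores, all on the strand of the gene, Mt2 held 4, and Slc30a1 held 2, both on the opposite strand. Among 32851 promoters of the same length, 25.7% held at least 1 core, 7.11% at least 2, 1.97% at least 3 and 0.517% at least 4. Hdac2 held 2 cores that overlap on opposite strands, and no match was found in the windows of Hdac8 and Mtf1. A match to these letters describes the sequence and does not show binding.

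Relative to the mean, the normalised counts of Mt1 had the smallest SD of the 8 genes on either diet (2.35% control, 3.98% ketogenic). These counts were bounded as described below, so this does not show that expression was even. Normalised counts were 694, 719, 701, 724 and 685 on the control and 727, 739, 679, 676 and 701 on the ketogenic diet. Ketogenic mice lay on both sides of the control range, 2 above and 2 below it. The mean was 705 ± 16.5 (SD, n = 5) on the control and 705 ± 28.1 (SD, n = 5) on the ketogenic diet, and the log2 fold change was -0.0004 (SE 0.0476, 95% interval -0.10 to 0.10; edgeR's adjusted p = 0.997). The variance of Mt1 was 0.389 times the mean over the control mice and 1.12 times the mean over the ketogenic mice. Counting of independent reads gives a variance equal to the mean on average. With 5 mice per diet such ratios scatter widely, and a departure from counting was not tested.

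Mt1 reads occupied a large share of the positions at which a read can start. With a length of 540 bases in the RPKM table and reads from either strand, Mt1 offers 1080 start positions, and its raw counts of 643 to 769 equalled 59.5% to 71.2% of them. For Mt2 the share was 9.0% to 18.8%, and for the other 6 genes at most 8.6% by the same lengths. For each of these 6 genes that length exceeded the merged exons, as for Hdac3 (8365 against 4054 bases). Merged exons would give them higher shares, so their values do not show how far they lie from the bound described next. Across the table no gene exceeded 109% of its start positions in any mouse. Among 139 genes whose length is unambiguous and whose mean count was at least 1000, 15 lay above 90% of their start positions in some mouse, 0 lay above 110%, and the highest reached 105%. Counts of short abundant genes were thus bounded at about 1 read per start position. The sources used here do not state whether reads sharing a start were removed, and the origin of the bound was not tested. Under the assumption of randomly placed starts counted at most once, Mt1 counts became 977 to 1294 on the control and 1106 to 1345 on the ketogenic diet, 1.52 to 1.75 times those deposited. The log2 fold change of Mt1 was then 0.04, or 0.06 with the start positions reduced by the read length, an alternative chosen after the data were seen. Neither value passed the test, and the narrow interval of Mt1 applies to the deposited counts, not to the transcript level.

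**Figure D3:**
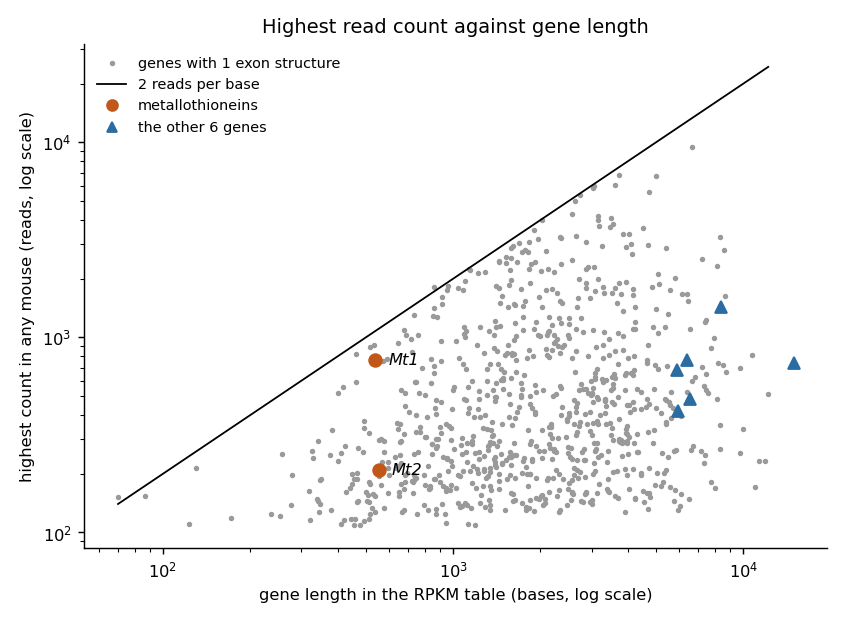
Highest count in any mouse (vertical axis, log scale) against gene length in the RPKM table (horizontal axis, log scale) for 842 genes with a single exon structure and a mean count of at least 100 (grey), with Mt1 and Mt2 (orange circles) and the other 6 genes (blue triangles). The line marks 2 reads per base. Grey points fill the area up to the line and hardly pass it, and Mt1 lies just under it. The lengths plotted for the other 6 genes exceed their merged exons.

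Mt2 is the metallothionein named in the β-hydroxybutyrate hypothesis. Its normalised counts were 108, 159, 128, 151 and 129 on the control diet and 141, 155, 100, 129 and 190 on the ketogenic diet. Ketogenic mouse 5 was the highest and ketogenic mouse 3 the lowest of all 10, so the spread within the ketogenic group enclosed the control group. Means were 135 ± 20.3 and 143 ± 33.2 (SD, n = 5 each), with a log2 fold change of 0.08 (SE 0.166, 95% interval -0.28 to 0.45; edgeR's adjusted p = 0.829). The sign rested on 1 animal, since without ketogenic mouse 5 the log2 fold change was -0.04. Without 1 of the other mice it ran from 0.02 (control mouse 1) to 0.19 (ketogenic mouse 3), with 0.16 without control mouse 2 and 0.06 without ketogenic mouse 2. The variance of Mt2 was 3.04 times the mean over control and 7.72 times over ketogenic mice. Both ratios lay above that of counting alone, which was not tested. Its interval was the widest of the 8 genes. In GENCODE M21 the antisense transcript Gm45774 shares 210 of the 462 windows of 50 bases of Mt2, and it has no row in the count table. Because the kit does not mark strand, reads from the gene and its antisense partner cannot be told apart.

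The balance between the metallothioneins did not shift detectably. In control mice 4.51 to 6.43 reads of Mt1 were counted per read of Mt2, and in ketogenic mice 3.68 to 6.78. The log2 ratio of Mt2 to Mt1, with 0.5 added to each count, was -2.39 ± 0.194 (SD, n = 5) on the control and -2.33 ± 0.315 (SD, n = 5) on the ketogenic diet, a difference of 0.07 (exact permutation p = 0.714). The difference became -0.05 without ketogenic mouse 5. Summed normalised counts of both genes were 840 ± 34.9 and 848 ± 52.1 (SD, n = 5 each). Of the other metallothioneins, Mt3 had only 14 to 33 reads per mouse and a log2 fold change of -0.25 (edgeR's adjusted p = 0.618), and Mt4 had 0 reads in every mouse.

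MTF1 is the zinc sensor of the system. Mtf1 (chr4:124802104-124849800, plus strand) had normalised counts of 738, 671, 611, 590 and 742 in control mice and of 697, 631, 659, 609 and 591 in ketogenic mice. All ketogenic mice fell inside the control range. Means were 670 ± 70.3 and 638 ± 41.5 (SD, n = 5 each), with a log2 fold change of -0.07 (SE 0.0777, 95% interval -0.24 to 0.10; edgeR's adjusted p = 0.662). With a mouse left out it ran from -0.03 (without control mouse 5) to -0.11 (without control mouse 4), and it was -0.04 without control mouse 1 or ketogenic mouse 5. The head-to-head gene 1110065P20Rik, which shares 672 of the 7582 windows of Mtf1, had 2 to 13 reads per mouse.

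SLC30A1, also called ZnT1, exports zinc across the plasma membrane. Slc30a1 (chr1:191906767-191913247, plus strand) had normalised counts of 445, 591, 570, 472 and 510 on the control and 587, 562, 541, 538 and 617 on the ketogenic diet. All 5 ketogenic mice exceeded the control mean, but only mouse 5 exceeded every control mouse. The mean was 518 ± 62.5 (SD, n = 5) against 569 ± 33.1 (SD, n = 5), with a log2 fold change of 0.14 (SE 0.0840, 95% interval -0.05 to 0.32; edgeR's adjusted p = 0.423, exact permutation p = 0.151). Without control mouse 1 it was 0.09. The antisense gene 1700034H15Rik, which shares 420 of the 5195 windows of Slc30a1, had 9 to 16 reads in control and 1 to 9 reads in ketogenic mice and was too low to be tested.

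Co-variation within the metal-responsive group was examined across all 10 mice over 6 pairs in log2 CPM, a scale that divides each count by its library's size. Mt1 and Mt2 had a Pearson r of 0.57 (permutation p = 0.0843, adjusted 0.289) and a Spearman rho of 0.55 (permutation p = 0.103, adjusted 0.310). Mt2 and Slc30a1 had an r of 0.55 (permutation p = 0.0962, adjusted 0.289) and a rho of 0.59 (permutation p = 0.0804, adjusted 0.310). Neither pair passed the threshold, and both correlations were similar with values centred on the mean of their diet (r = 0.58 and 0.57). Without the pair of mice farthest from the median of the gene named first, r was 0.59 for Mt1 with Mt2 and 0.57 for Mt2 with Slc30a1. For Mtf1 messenger RNA all 3 correlations with its targets were negative and none passed. Its r was -0.16 with Mt1 (permutation p = 0.648, adjusted 0.648), -0.49 with Mt2 (permutation p = 0.156, adjusted 0.312) and -0.34 with Slc30a1 (permutation p = 0.337, adjusted 0.506). The rank correlations were -0.10, -0.41 and -0.18 (permutation p = 0.785, 0.250 and 0.631, adjusted 0.785, 0.50 and 0.757). Leaving out the farthest mice gave -0.29 and -0.45 for Mt1 and Mt2, whereas the value for Slc30a1 rested on control mice 1 and 5, without which r was 0.36. Mt1 and Slc30a1 gave r = 0.21 (permutation p = 0.550, adjusted 0.648) and rho = 0.33 (permutation p = 0.349, adjusted 0.523), and r was 0.02 without ketogenic mice 1 and 2. The range of Mt1 was narrow, and its counts were bounded as described.

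**Figure D4:**
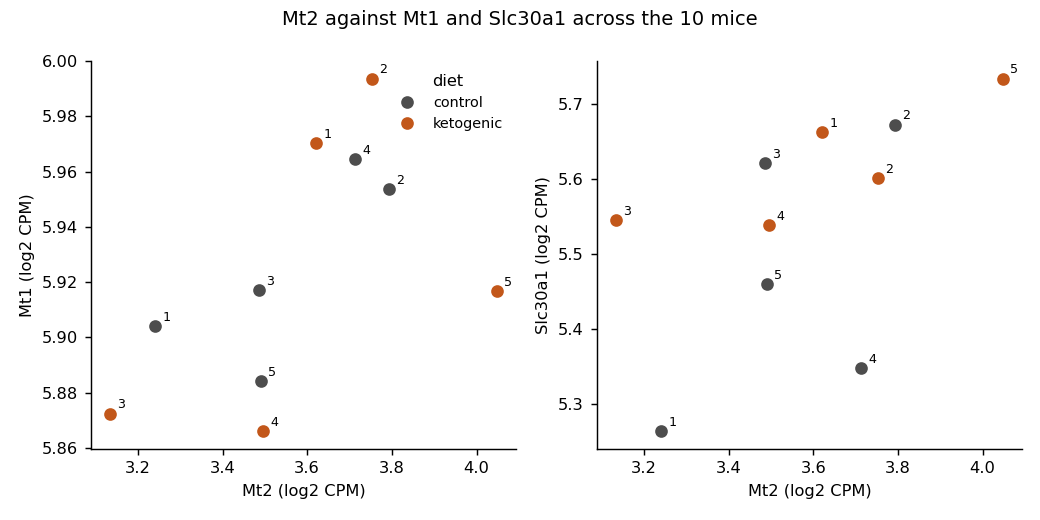
Mt2 (horizontal axes, log2 CPM) against Mt1 (left) and Slc30a1 (right, vertical axes, log2 CPM) in the 10 mice, coloured by diet and numbered as in the labels. Both panels slope upward, with r = 0.57 and 0.55, and ketogenic mouse 5 has the highest Mt2.

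For each of the 8 genes the 3 genes with the most similar pattern over the 10 mice were taken from all 15949 tested genes. For Mt1 these were Socs3 (r = 0.93), Ccnk (0.92) and Junb (0.91). Socs3, an inhibitor of cytokine signalling, and Junb, an immediate early transcription factor, used up to 59.1% and 89.9% of their start positions. Mt2 was nearest to Fam83g (0.89), Nab2 (0.89) and 4732416N19Rik (0.88), Mtf1 to Gm15879 (0.91), Prrg2 (0.87) and Gm13205 (0.86), and Slc30a1 to Neb (0.90), Slk (0.90) and Klf11 (0.88). Hdac1 was nearest to Gm26563 (0.95), Dleu2 (0.94) and Flvcr2 (0.93), Hdac2 to Zfp30 (0.92), Lyve1 (0.91) and Tmem102 (0.90), Hdac3 to Gm11266 (0.95), Plxdc1 (0.94) and Pla2g5 (0.94), and Hdac8 to Lbh (0.95), Armcx1 (0.94) and Lrrc3b (0.94). None of the 8 genes was among the nearest of another. With this many candidates and 10 mice, high values are found for any gene, and they are given as a description.

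The partners of the 8 genes were read from 10 lists with 79 genes, of which 73 were tested. Of these, 1 gene rose on the ketogenic diet and 0 fell, so 1.37% were called, beside 1.34% of all tested genes. Another count, that of unadjusted p under 0.05, was 5 (6.85%), below the 17.8% of all tested genes. The gene that rose was Slc39a10, a plasma membrane zinc importer. Its normalised counts were 1711, 1628, 1714, 1773 and 1815 on the control and 2073, 2021, 2003, 1991 and 2087 on the ketogenic diet. No ketogenic mouse overlapped the control mice. The mean was 1728 ± 70.8 (SD, n = 5) against 2035 ± 42.6 (SD, n = 5), with a log2 fold change of 0.24 (SE 0.0364, 95% interval 0.16 to 0.32; edgeR's adjusted p = 0.0107, exact permutation p = 0.00794, the smallest possible). Over 22 alternatives the log2 fold change lay between 0.22 and 0.25. The adjusted p stayed under 0.05 in 21 of them and reached 0.0715 in the fit that includes the cardiomyocyte score. In that fit the log2 fold change was 0.23, with an SE of 0.0460.

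Other zinc transporters did not pass the test. With edgeR, DESeq2 and limma no other transporter was called. Of 12 tested SLC39 importers 7 lay higher and 5 lower, and of 5 tested SLC30 exporters outside Slc30a1 4 lay higher, Slc30a9 by 0.16 (edgeR's adjusted p = 0.366) and Slc30a5 by 0.13 (edgeR's adjusted p = 0.354). Among class II and IV deacetylases 5 of 7 lay lower, with the smallest p for Hdac10 (log2 fold change -0.18, edgeR's adjusted p = 0.293) and Hdac6, the tubulin deacetylase (-0.13, edgeR's adjusted p = 0.396). The subunits of the complexes that carry HDAC1, HDAC2 and HDAC3 gave 0 calls among 36 tested genes with edgeR, DESeq2 or limma, and 3 had an unadjusted p under 0.05 with edgeR. Nearest to the threshold were Phf21a of the CoREST complex (0.20, edgeR's adjusted p = 0.133), Chd3 of the NuRD complex (-0.20, edgeR's adjusted p = 0.212) and Arid4b of the Sin3 complex (0.10, edgeR's adjusted p = 0.224). In the smaller lists, Ncor1 and Gps2 of the NCoR complex differed by 0.08 and -0.06, and Dnttip1 and Mideas of MiDAC by 0.12 and -0.08 (edgeR's adjusted p from 0.362 to 0.706). Of 10 histone acetyltransferases, which oppose deacetylases, 0 passed with edgeR or limma and 1 had an unadjusted p under 0.05. Kat8, a histone H4 acetyltransferase, had the smallest p of them (log2 fold change -0.24, edgeR's adjusted p = 0.0765) and fell by DESeq2's Wald test (adjusted p = 0.0235), followed by Kat6a (0.11, adjusted p = 0.357). Foxo3 differed by -0.06 (edgeR's adjusted p = 0.760) and its oxidant defence targets Sod2 and Cat by 0.08 and 0.04 (adjusted p = 0.494 and 0.558).

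**Figure D5:**
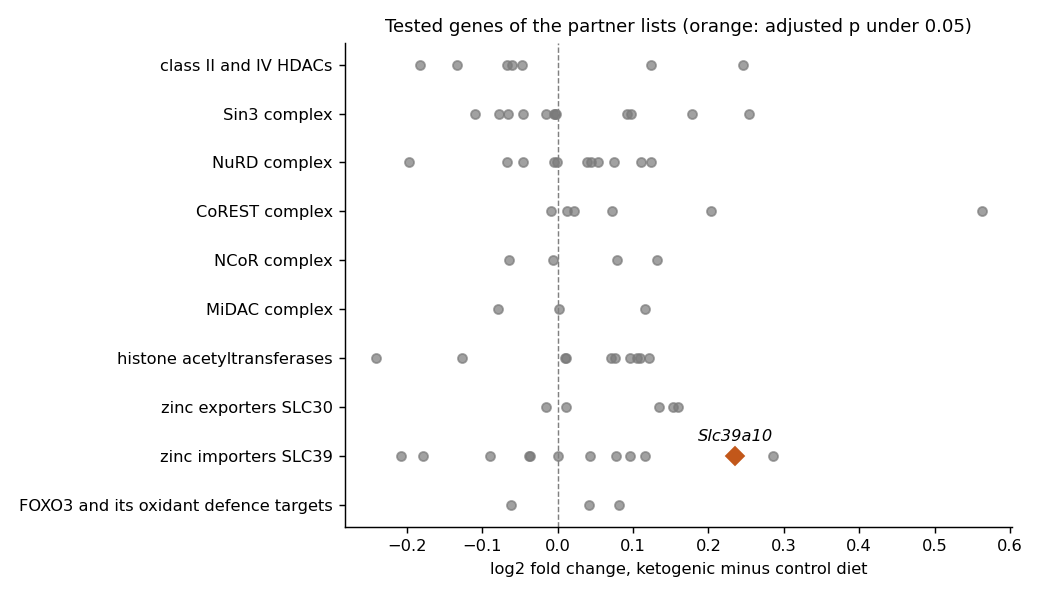
Log2 fold changes (ketogenic minus control diet, horizontal axis) of the 73 tested partner genes, by list. Each circle is 1 gene, and the orange diamond, Slc39a10 at 0.24, is the gene with an adjusted p under 0.05. The point at 0.56 is Rcor2, which had 3 to 23 reads per mouse.

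Inducers of metallothioneins other than metal were read from a pair of lists. All 7 glucocorticoid response genes lay lower in ketogenic mice, and their median log2 fold change was -0.16, beside -0.01 for all tested genes. With edgeR, DESeq2 and limma 0 passed the adjusted threshold. With edgeR 4 of 7 had an unadjusted p under 0.05, beside 17.8% of all tested genes. The smallest were those of Tsc22d3 (-0.11, edgeR's adjusted p = 0.146) and Cdkn1a (-0.11, edgeR's adjusted p = 0.155). In this list 1 of 7 genes used more than 50% of its start positions in some mouse, reaching 67.7%. Raw counts over all 10 mice ran from 3377 to 3748 for Tsc22d3 and from 3698 to 4164 for Cdkn1a. Of 12 immediate early and heat shock genes 11 lay lower, 0 passed with any of these tools and 1 had an unadjusted p under 0.05, with the smallest for Jun (-0.11, adjusted p = 0.111) and Fosb (-0.08, adjusted p = 0.300). In this list 8 of 12 genes used more than 50% of their start positions in some mouse, and raw counts ran from only 3354 to 3737 for Jun and from 6216 to 6796 for Fosb over all 10 mice. The shares of both lists use the lengths of the RPKM table, which for part of the genes counted overlapping exons more than once. Genes below 50% may therefore also lie near the bound. The part of this bound in the fold changes of either list was not tested.

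In some lists of other cell types most markers lay in the same direction, but with edgeR only Cd79a was called. Of 8 cardiomyocyte markers 7 lay higher in ketogenic mice. The median log2 fold change was 0.29, with a range of -0.49 to 0.77. With edgeR 0 passed and 5 had an unadjusted p under 0.05, beside 17.8% of all tested genes, while DESeq2 called Actc1, Myl2 and Myl3. The smallest p-values with edgeR were those of Actc1 (0.35, adjusted p = 0.0963) and Myl2 (0.33, adjusted p = 0.119). Their summed RPKM was 122 to 164 on the control and 142 to 195 on the ketogenic diet. All 5 macrophage markers lay lower, 0 passed with edgeR, DESeq2 or limma and 3 had an unadjusted p under 0.05. Their summed RPKM was 19.1 to 113 in control and 14.3 to 33.3 in ketogenic mice, with Adgre1 at -2.63 (adjusted p = 0.183, and -1.12 without control mouse 1, which had 2198 of its reads) and Cd68 at -0.50 (adjusted p = 0.218). In the lymphocyte list, with summed RPKM of 65.7 to 94.4 and 61.9 to 68.0, 3 of 5 genes lay higher and the median log2 fold change was 0.08. The B-cell gene Cd79a fell by 0.46 on the log2 scale (edgeR's adjusted p = 0.0221), the sole call among the 5 genes. That call held in 15 of 22 alternatives and was lost with the replicate block (adjusted p = 0.0541), with the cardiomyocyte score in the fit (0.0760) and without control mouse 1 or 3 or ketogenic mouse 3, 4 or 5 (0.0530 to 0.0565). In the endothelial, fibroblast, pericyte and smooth muscle, and erythroid lists 0 genes passed with edgeR (1 had an unadjusted p under 0.05, the endothelial receptor gene Kdr, which DESeq2 called), and their medians were -0.05, 0.11, -0.02 and -0.06. Raw counts of some of these markers hardly varied over the 10 mice (7457 to 7691 for Rgs5, 2707 to 2892 for Acta2 and 439 to 465 for Hbb-bs), so these medians do not show that the share of a cell type stayed the same. In the fit that includes the cardiomyocyte score, 0 of the 8 genes passed and 4 estimates moved by more than 1.5 times without turning, Hdac1 to -0.16, Hdac8 to 0.40, Mt2 to 0.24 and Mtf1 to -0.0009. The score itself ran from -1.38 to 0.442 in control and from -0.687 to 1.31 in ketogenic mice. Because it differed with diet, this fit cannot fully separate score and diet. The part of other cell types in the remaining values was not tested.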

How the data were processed

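Messenger RNA of CD31-captured heart cells was sequenced in 10 libraries, 1 per mouse. The authors deposited raw counts of reads per gene, not normalised, and RPKM, that is, counts per kilobase of gene and per 1000000 counted reads. The submitters' processing notes name bcl2fastq 2.17.1.14, STAR 2.3, HTSeq 0.6.0 and the mm10 genome, and the annotation release and any removal of duplicate reads are not given in the sources used here. Diets and replicate numbers came from the labels. Of 46983 identifiers 46488 were found in GENCODE M21 (GRCm38), 37902 with the same version.

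Counts were normalised by TMM and filtered with filterByExpr, and 15949 genes were tested with edgeR 4.0.16 (quasi-likelihood F-test, Benjamini-Hochberg adjustment) in R 4.3.3. Standard errors were obtained as log2 fold change over √F. A prior count of 2 entered log2 CPM. Correlations used 100000 permutations, and scipy 1.17.1 gave their adjustment. Gene lists and the 8 genes were chosen with earlier results of these data known. In each list the genes with an adjusted p under 0.05 were named, or else the 2 with the smallest p, and for each of the 8 genes the 3 with the highest r. A few genes outside this rule, such as Foxo3 and Rcor2, were named after their values were seen, and 1 list gene is not reported here. Alternatives were DESeq2 1.42.0, limma 3.58.1 on log2(RPKM + 1) and log2(RPKM + 0.1), other scalings and filters, a replicate block, the cardiomyocyte score (the mean z-score of 8 markers) as a covariate, start position corrections, and each mouse left out. The tests were checked on simulated counts. Mt2 had 100 to 209 reads per mouse, and the intervals cover both counting error and the spread between mice.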

Additional observations from a re-analysis of the deposited data

How the results depend on the processing

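No setting brought any of the 8 genes, the ratio of Mt2 to Mt1 or a correlation past its threshold. Mt1, at -0.0004 on the log2 scale, changed sign with DESeq2's size factors (0.0047), library size alone (0.0117), no filter on low counts (0.0028), DESeq2's Wald test (0.0043), limma with 1 (0.0114) or 0.1 (0.0115) added, the cardiomyocyte score as a covariate (0.0259), and start positions corrected (0.0435) or corrected with fewer positions (0.0580, chosen after the data were seen). The covariate also turned Hdac2 (-0.0234) and Hdac3 (-0.0647). With a mouse left out, Mt1 ranged from -0.0175 to 0.0183, Mt2 from -0.0362 to 0.194, the ratio of Mt2 to Mt1 from -0.0456 to 0.174 and the correlation of Mt1 and Mtf1 from -0.335 to 0.0116. The number of genes called, 213, was 816 with DESeq2's Wald test, 49 with the cardiomyocyte score, and 86 to 492 with a mouse left out, the highest without ketogenic mouse 2 and the lowest without control mouse 2; the cause was not tested. No pairing by replicate number was visible: deviations of same-numbered mice correlated between -0.134 and 0.0936, with 0 of 5 above 0.1. Because the labels give no litter or cage, such values cannot show that same-numbered mice shared neither. A replicate block lowered the called genes to 113 and changed no call among the 8 genes. Mt2 had 100 to 209 reads per mouse, and Mt1 reads took 59.5% to 71.2% of their start positions.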

Other observations

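Several short, strongly expressed genes had nearly the same raw count in all 10 mice. Zfp36, an mRNA decay factor, had 3582 to 3611 reads per mouse and reached 101% of its start positions, and Ier3, an immediate early gene, had 2191 to 2249 reads and reached 99.4%. Mt1, at 59.5% to 71.2%, lay below these genes. The cause was not tested.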
